A study of Mus musculus with 3 samples.

Results

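The respiratory chain of the mitochondrial inner membrane passes electrons from NADH and succinate to oxygen, and its complexes I, III and IV pump protons that drive the ATP synthase, complex V. Complex I oxidises NADH, complex II oxidises succinate, complex III hands electrons from ubiquinol to cytochrome c, and complex IV, cytochrome c oxidase, reduces oxygen. Most subunits are encoded in the nucleus and imported, and a small set is encoded in mitochondrial DNA. Activated CD8 T cells use respiration together with glycolysis, and memory CD8 T cells are known for their reliance on it. The genes described here are all named probe sets whose mouse symbol begins with Nduf, Uqcr or Atp5, or is Sdha, Sdhb, Sdhc, Sdhd, Cyc1, Cycs or a lettered Cox4 to Cox8 gene. This gave 95 of 19505 named genes, with 46 Nduf genes grouped as complex I, 4 as complex II, 9 as complex III, 18 as complex IV, 17 as complex V, and the cytochrome c gene Cycs.

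CD3/CD28-stimulated mouse CD8 T cells were grown in a Tc1 cytokine mix, which favours cytotoxic, interferon-gamma producing cells. The control culture had no added cholesterol, and the others received cholesterol at 0.5 or 0.75 µg/ml. The labels leave out strain, genotype, age, number of animals, length of treatment and the solvent of the cholesterol, so solvent and cholesterol cannot be told apart. With 1 array per condition there is no replicate spread and no test, and precision is limited by that number. Values are given below as intensities in the order control, 0.5 and 0.75 µg/ml, and differences as log2 of one array's intensity minus that of another. In such bulk RNA, fewer cells of a type and less RNA per cell cannot be told apart.

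All 5 CD8 T cell genes checked were above the negative-control level on all arrays, with Cd3e at 4364, 4650.1 and 4594, Cd3g at 2863, 2688 and 2692 and Gzmb at 7611, 7741 and 8136. The CD8 chains were lower on the 0.75 µg/ml array, Cd8a at 4225, 4164 and 3313 and Cd8b1 at 2574, 2621 and 2030.04, and the part of this in the values below was not tested. Of 13 measured markers of CD4 T cells, B cells, macrophages and other myeloid cells, NK cells, neutrophils, mast cells and platelets, 12 lay under the 95th percentile of the negative-control probe sets (102) on every array, and the exception, Kit, was at 133, 88.3 and 42.4. Their summed intensity was 423, 335 and 284, and its part in the values below was not tested. A gene was kept if its mean log2 level reached the median of all probe sets (an intensity of 32.4), which 10940 of all genes and 90 of the 95 respiratory chain genes did. Of the 95, 86 were above 102 on all 3 arrays and the other 9 were under it on all 3. The 5 genes that missed the filter were Ndufa4l2, Cox7a1, Cox7b2, Cox8b and Cox8c, all of them relatives or isoforms best known from other tissues.

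Because many nuclear respiratory genes carry sites for the transcription factors NRF1, GABP (an ETS factor) and YY1 near their start, the promoter windows were searched for these motifs and for a sterol response element, an E-box and a hypoxia element. RefSeq windows of GRCm38.p6, 250 bases before to 50 after the start, matched 78 of the 95 genes by symbol. The 4 windows printed here are those of Ndufaf4, a gene whose intensity was among the highest relative to control, Atp5g2 and Uqcrh, which were among the lowest, and Cycs, which stayed level. They show that the same motif occurs upstream of genes that differed in opposite directions. Only the 250 bases before the start are printed, 5′ to 3′ on the gene's strand. Capitals mark matches to every searched motif except the hypoxia element, whose matches were left unmarked.

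Ndufaf4 (chr4:24897833-24898082, plus strand, NRF1 motif in capitals) and Atp5g2 (chr15:102671048-102671297, minus strand, NRF1 motif in capitals):

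Ndufaf4: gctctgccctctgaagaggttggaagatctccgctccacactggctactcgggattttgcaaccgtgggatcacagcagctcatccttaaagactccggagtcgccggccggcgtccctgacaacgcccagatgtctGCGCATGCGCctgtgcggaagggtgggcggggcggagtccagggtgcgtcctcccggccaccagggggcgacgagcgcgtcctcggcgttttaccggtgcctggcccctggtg

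Atp5g2: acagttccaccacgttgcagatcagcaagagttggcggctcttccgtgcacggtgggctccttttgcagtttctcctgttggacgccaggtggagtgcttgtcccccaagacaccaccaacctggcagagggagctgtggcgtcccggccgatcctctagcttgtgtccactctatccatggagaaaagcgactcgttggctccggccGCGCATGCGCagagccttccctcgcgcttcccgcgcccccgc

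Uqcrh (chr4:116075071-116075320, minus strand, ETS motif in capitals) and Cycs (chr6:50566570-50566819, minus strand, NRF1 motif in capitals):

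Uqcrh: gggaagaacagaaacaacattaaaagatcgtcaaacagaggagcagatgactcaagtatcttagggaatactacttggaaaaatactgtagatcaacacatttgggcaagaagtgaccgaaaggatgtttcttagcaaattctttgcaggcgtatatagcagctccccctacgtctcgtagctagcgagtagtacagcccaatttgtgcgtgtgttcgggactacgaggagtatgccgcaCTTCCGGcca

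Cycs: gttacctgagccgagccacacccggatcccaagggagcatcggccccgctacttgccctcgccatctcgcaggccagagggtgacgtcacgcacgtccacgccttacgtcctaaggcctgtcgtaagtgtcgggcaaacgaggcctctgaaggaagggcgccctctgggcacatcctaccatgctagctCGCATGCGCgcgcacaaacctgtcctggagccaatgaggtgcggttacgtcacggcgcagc

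The NRF1 motif GCGCATGCG, read on either strand, was found in 11 of the 78 windows (14.1%), against 4.19% of 8928 windowed genes past the level filter and 1.95% of all 27025 windowed genes. The YY1 motif AAGATGGCG was found in 8 of 78 (10.3%), against 3.66% and 1.64% of the same sets. In the bases before the start, the only YY1 match located was that of Atp5j, at -88 relative to the start. The windows also cover transcribed bases after the start. The other YY1 matches were not located upstream and cannot be read as upstream sites. The same holds for some of the genes counted for NRF1 and for ETS. The ETS motif CCGGAAG was in 19 of 78 (24.4%), close to the 20.6% of genes past the filter and above the 9.93% of all genes. The sterol response element TCACNCCAC was in 0 of 78, against 1.37% and 1.44%. The E-box CACGTG was in 6 (7.69%, against 11.8% and 8.09%), and the hypoxia element ACGTG, which lies within every E-box, was in 19 (24.4%, against 29.3% and 21.8%). Among members past the filter, the 11 with an NRF1 match had a median log2 difference of 0.00 at 0.75 µg/ml against control, and the 64 without had one of 0.01. For the ETS motif both medians were 0.01, and for the 8 genes with a YY1 match the median was 0.03 against 0.01 for the other 67.

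**Figure D1:**
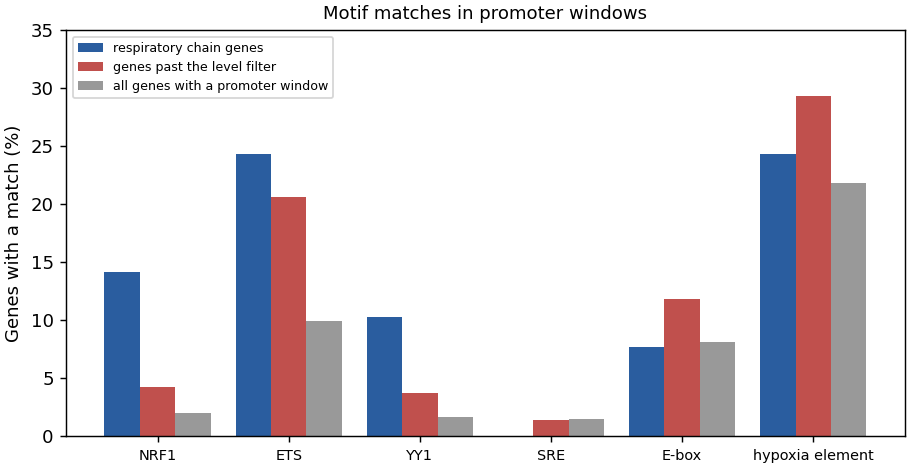
Share of genes (y axis, percent, from 0) with at least 1 match to each motif (x axis) in the promoter window, for the 78 respiratory chain genes with a window (blue), the 8928 genes past the level filter (red) and all 27025 genes (grey). NRF1 and YY1 bars are highest for the respiratory chain genes, at 14.1% and 10.3%, and the sterol response element has no blue bar because no window held it.

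Across the 90 genes past the filter, the respiratory chain was close to level between the arrays. The median log2 difference was 0.02 at 0.5 µg/ml and 0.03 at 0.75 µg/ml against control, beside 0.01 and 0.00 for all 10940 genes past the filter. The middle 50% of members lay between -0.08 and 0.09 at the lower dose and between -0.04 and 0.15 at the higher. At 0.75 µg/ml the SD over members was 0.17, against 0.36 over all genes past the filter, 0.28 over the 2437 genes with a mean log2 intensity of at least 9 (the bright genes), and 0.31 over positive-control probe sets. For the 50 bright members the SD was 0.16. At 0.5 µg/ml the SD over members was 0.19, close to the 0.21 over all genes, and over the 86 members above the negative-control level it was 0.14. For the 50 bright members it was 0.09 at that dose, against 0.13 over bright genes. Members above the control numbered 52 of 90 (57.8%) at each dose, beside 52.9% of all genes at 0.5 µg/ml and 50.2% at 0.75 µg/ml. Among bright genes 58.9% and 57.3% were above it, close to the members' share, and the bright-gene medians were 0.02 and 0.04.

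A log2 difference of at least 0.32, in either direction, was counted as a step. At 0.75 µg/ml 4 members were higher and 3 lower than in the control by a step, or 4.44% and 3.33%, where 10.8% and 13.1% of all genes past the filter were. Among bright genes the background shares were 7.71% and 9.07%, and 1 of the 50 members at that level was counted in each direction. At 0.5 µg/ml 3 members were higher and 2 lower (3.33% and 2.22%), against background shares of 5.91% and 5.18%. Among bright genes the shares at that dose were 1.07% and 1.27%, and 0 of the 50 bright members were counted in either direction. At 2-fold or more, 1 member was higher at 0.5 µg/ml, the dim gene Cox4i2, and 0 were lower, where 0.0914% of all genes were higher and 0.0548% lower. Cox4i2, at 22.7, 47.7 and 32.4, passed the level filter only through its high 0.5 µg/ml value. It is also among the members counted as higher by a step at both doses, so these counts include a dim gene. Over the 86 members above the negative-control level, 2 were higher and 1 lower by a step at 0.5 µg/ml. For the same 86, 3 were higher and 3 lower at 0.75 µg/ml. At 0.75 µg/ml 0 members differed 2-fold, with background shares of 0.356% higher and 1.57% lower.

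**Figure D2:**
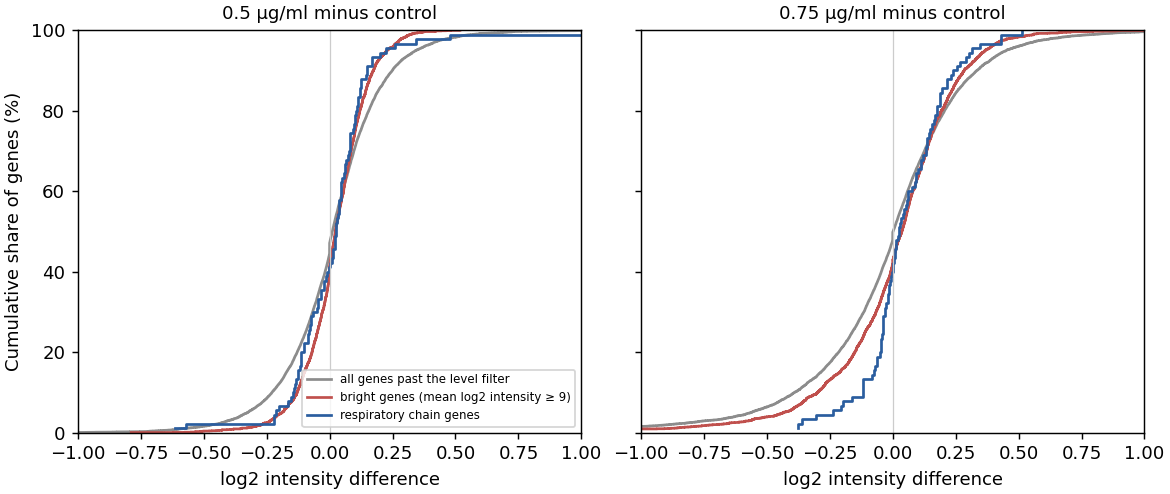
Cumulative share of genes (y axis, percent) against the log2 intensity difference from control (x axis, drawn from -1 to 1, values beyond it not shown) at 0.5 µg/ml (left) and 0.75 µg/ml (right), for the 90 respiratory chain genes (blue), the 2437 bright genes (red) and all 10940 genes past the level filter (grey). At 0.75 µg/ml the blue line begins at -0.38, and the grey and red lines have a longer lower tail.

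Complex I had 45 genes past the filter. Their median was 0.02 at 0.5 µg/ml and 0.01 at 0.75 µg/ml. Its sign is not settled, since it was just under 0 with quantile normalization and -0.01 for structural subunits only at 0.5 µg/ml, and just under 0 with arrays centred at 0.75 µg/ml. At 0.75 µg/ml 23 genes were above the control and 20 below, and 2 had equal intensities. The hydrophilic arm, which reaches into the matrix and carries the flavin and the iron-sulfur clusters, had 15 measured genes with a median of 0.03 at 0.75 µg/ml. The membrane arm, which holds the proton-pumping part, had 20 with a median of -0.01.

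The measured catalytic core genes of the matrix arm differed from control by at most 0.23 at either dose. Ndufv1, which binds NADH and the flavin, was at 978, 1033 and 1022, and its partner Ndufv2, an iron-sulfur subunit, was at 446, 492 and 524. The difference at 0.75 µg/ml was 0.06 for Ndufv1 and 0.23 for Ndufv2. Ndufs1, which carries further iron-sulfur clusters, was lower at 0.5 and higher at 0.75 µg/ml than in the control, at 279.9, 255 and 304. Near the ubiquinone site, Ndufs3 was at 1076, 993 and 1043, Ndufs7 at 686, 696 and 671 and Ndufs8 at 728, 706 and 743. None of these 3 differed from control by more than 0.12 at either dose.

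Among accessory genes of complex I, Ndufs5 had the lowest difference of any member past the filter at 0.75 µg/ml. Ndufs5, a membrane-arm subunit facing the intermembrane space, was at 225, 193 and 173, which is -0.22 at 0.5 and -0.38 at 0.75 µg/ml, so its 3 values descend with dose. A pseudogene of it, Ndufs5-ps, is annotated in RefSeq, and whether the probe set reads it was not tested. Ndufv3, a small matrix-arm subunit, was at 133, 142 and 102, lower only at 0.75 µg/ml (-0.37), and its value there is at the edge of the negative-control level. Ndufa6, another matrix-arm subunit, was at 273, 277 and 231 (-0.24).

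On the high side, Ndufb2, a membrane-arm subunit, was at 282, 307 and 359, ascending with dose to a difference of 0.35. Ndufa4 was at 1540.3, 1667 and 2075, or 0.11 at 0.5 and 0.43 at 0.75 µg/ml, which together with Ndufaf4 was the highest of the 86 members above the negative-control level. Its product was named as a complex I subunit and is now assigned to complex IV. Its relative Ndufa4l2, known as a hypoxia-induced gene, was under the negative-control level on every array, at 16.0, 15.4 and 16.9. Ndufb4 and its close copy Ndufb4b, which similar sequence may keep from being read apart, were at 906, 936 and 910.4 and at 1146, 1182 and 1257.

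The other accessory subunits of complex I stayed between -0.20 (Ndufa1) and 0.13 (Ndufa5) at 0.5 µg/ml and between -0.12 (Ndufs4) and 0.26 (Ndufb8) at 0.75 µg/ml. Ndufb8, a membrane-arm subunit whose protein is lost when the complex does not assemble, was at 154, 150.1 and 184, with the high value on the 0.75 µg/ml array alone. Ndufa9, which lies near the ubiquinone site, was at 446, 424 and 499, and Ndufa12, a late-added matrix-arm subunit, at 1013, 1065 and 1177. Ndufs4, an accessory subunit whose loss causes a Leigh-like disease in mice, was at 351, 322 and 323, lower by nearly the same amount on both cholesterol arrays. Of the 20 membrane-arm genes 15 were above the 0.5 µg/ml array at 0.75 µg/ml, where 46.2% of all genes and 50.5% of bright genes were. Against the control, 8 of these 20 were above and 12 below at 0.5 µg/ml, and 9 were above and 11 below at 0.75 µg/ml. Ndufab1, the mitochondrial acyl carrier protein, was at 403, 375 and 414.

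Genes for complex I assembly factors, which build the complex and are not part of it, went different ways. Ndufaf4 was at 282, 357 and 379, a difference of 0.34 at 0.5 and 0.43 at 0.75 µg/ml, both set against the same control array. Ndufaf6 was at 128, 178 and 128, higher at 0.5 µg/ml only (0.48). Ndufaf8 was at 172, 147 and 195, on opposite sides of the control at the 2 doses. The other 5, Ndufaf1, Ndufaf2, Ndufaf3, Ndufaf5 and Ndufaf7, lay between -0.10 and 0.17 at 0.5 µg/ml and between -0.05 and 0.06 at 0.75 µg/ml, and Ndufaf2 and Ndufaf5 were under the negative-control level. The median over the 8 was 0.11 at 0.5 µg/ml and 0.00 at 0.75 µg/ml.

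Complex II, succinate dehydrogenase, which also works in the tricarboxylic acid cycle, had 4 measured genes in a narrow range. The flavoprotein gene Sdha was at 377, 402 and 380.4 and the iron-sulfur gene Sdhb at 1051, 1051 and 1156. The membrane anchors Sdhc and Sdhd were at 269.7, 288 and 288 and at 786, 744 and 792. The 4 genes lay between -0.08 and 0.10 at 0.5 µg/ml and between 0.01 and 0.14 at 0.75 µg/ml. All 4 were above the control at the higher dose, where 50.2% of all genes and 57.3% of bright genes were above it. With 1 array per condition these margins cannot be set against a spread for each gene.

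Complex III had a median of 0.15 at 0.75 µg/ml over 9 genes, with 6 above and 3 below the control, where 50.2% of all genes were above it. At 0.5 µg/ml the median was 0.01, or -0.02 under quantile normalization. The genes above the control included the core proteins Uqcrc1 and Uqcrc2, which form the matrix-facing base. Uqcrc1 was at 811, 816 and 1009, 0.32 at 0.75 µg/ml, just short of a step, and 0.01 at 0.5. Uqcrc2 was at 251, 301 and 284, higher by 0.26 and 0.18. Of the small subunits, Uqcrq was at 624, 673 and 715 and Uqcr10 at 510.4, 509.8 and 576. Uqcrb, which helps form the ubiquinone pocket, was at 2073, 2330.1 and 2294, and Uqcr11 at 121, 109 and 123, the latter low on the 0.5 µg/ml array alone.

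The redox-carrying subunits of complex III were not among the higher genes. Cyc1, which holds the c-type heme, was at 167, 149 and 158, and the Rieske iron-sulfur protein gene Uqcrfs1 at 581, 594 and 535, with differences of -0.08 and -0.12 at 0.75 µg/ml. Uqcrh, the hinge protein that helps cytochrome c dock, was the lowest of the complex, at 1846, 1692 and 1496, descending with dose to -0.30. RefSeq lists pseudogenes of it, Uqcrh-ps1 and Uqcrh-ps2, and whether the probe set reads them was not tested. Cycs, encoding the mobile carrier cytochrome c, which also triggers apoptosis when released, was at 1408, 1433 and 1428, differing by 0.03 and 0.02.

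Complex IV had 18 genes, of which 14 passed the filter. For the 10 widely expressed subunit genes the median difference was 0.00 at the lower dose and 0.06 at the higher, and for all 14 at the higher it was 0.03. Cox4i1, a subunit through which ATP regulates the enzyme, was at 779, 700.3 and 905, lowest at 0.5 and highest at 0.75 µg/ml (-0.15 and 0.22). Cox5a and Cox5b, which bind the catalytic core, were at 1133, 1178 and 1216 and at 1843, 1701 and 1764. Cox7b was at 1215, 1302 and 1435, ascending with dose to 0.24. Cox8a was at 4167, 3850.1 and 3840.2 (-0.12), and Cox6a1, Cox6b1, Cox6c and Cox7c differed by at most 0.06 from control at 0.75 µg/ml in either direction. Cox7a2 was at 443, 437 and 491.

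Isoforms of complex IV known from heart and skeletal muscle, testis or lung were mostly dim. Cox6a2 was at 73.6, 49.5 and 65.8, Cox7a1 at 29.4, 26.5 and 33.1 and Cox8b at 11.6, 12.8 and 9.74, all muscle isoforms under the negative-control level on every array. Cox7b2 and Cox8c, known from testis, were at 6.56, 4.66 and 6.39 and at 25.8, 28.4 and 27.6. Cox4i2, the hypoxia-responsive lung isoform of Cox4i1, was at 22.7, 47.7 and 32.4. Its difference of 1.07 at 0.5 µg/ml was the one value among members at 2-fold or more, and it lies between arrays that were both under the negative-control level.

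The testis isoform Cox6b2 was the exception among these isoforms, above the negative-control level on all 3 arrays. Cox6b2 was at 530.3, 346 and 526, so the 0.5 µg/ml array stood lower (-0.61) and the 0.75 µg/ml array differed from the control by -0.01. The somatic form Cox6b1 was at 1207, 1166 and 1253. Cox7a2l, whose product helps join complexes III and IV into supercomplexes, was at 944, 1086 and 737. It was higher than the control at 0.5 µg/ml (0.20) and lower at 0.75 µg/ml (-0.36), and with no replicate array neither difference can be set against a spread for that gene.

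Complex V had 17 genes, all past the filter, with a median of 0.05 at 0.5 and 0.03 at 0.75 µg/ml, the latter 0.00 under quantile normalization. At the lower dose 14 of the 17 were above the control, where 52.9% of all genes past the filter and 58.9% of the bright genes were. The 5 genes of the F1 head, where ATP is made, had a median of 0.04 at 0.75 µg/ml. The catalytic beta subunit gene Atp5b was at 3972, 4276 and 4464 and the alpha subunit gene Atp5a1 at 3746, 4155 and 4271, both ascending with dose, by 0.17 and 0.19 at the higher. The rotor-stalk genes Atp5c1 and Atp5d were at 2226, 2319.98 and 2294 and at 2869.7, 3032 and 2886, and Atp5e at 218, 224 and 212.

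The c-ring genes, which encode the same mature rotor protein with different import signals, did not go one way. Atp5g1 was at 1266, 1285 and 1563, Atp5g2 at 3187, 3157 and 2783 and Atp5g3 at 1164, 1227 and 1279. At 0.75 µg/ml Atp5g1 was higher by 0.30 and Atp5g3 by 0.14, and Atp5g2 differed by -0.20. In the peripheral stalk, which holds the head still, Atp5h was the lowest gene of the complex, at 2772, 2889 and 2404 (-0.21), and Atp5o, which tethers the stalk to the head, was at 986, 1020.03 and 1003. Among small membrane subunits Atp5j2 was at 1659, 1802 and 2027 and Atp5mpl at 1122, 1310.1 and 1349, both ascending with dose to 0.29 and 0.27. Atp5k, a subunit that helps synthase dimers form and for which RefSeq names 4 pseudogenes, was at 126, 108 and 121, the lowest of the complex at 0.5 µg/ml (-0.21). Atp5j, Atp5l, Atp5md and Atp5pb differed from control by no more than 0.09 at either dose.

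**Figure D3:**
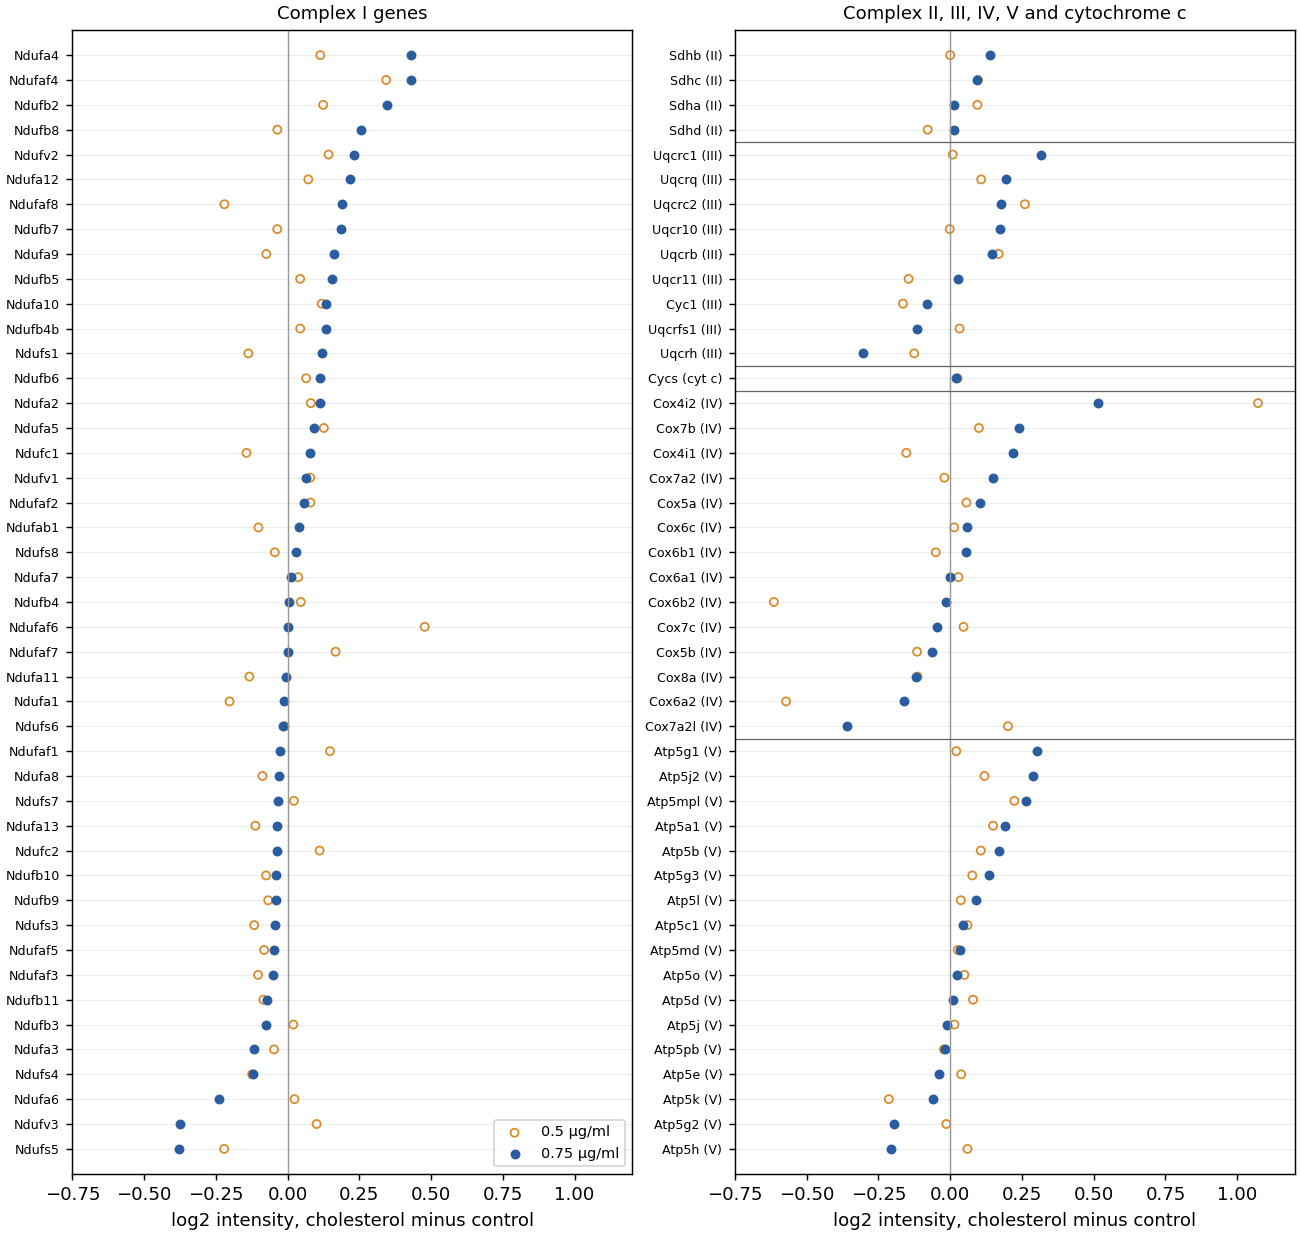
Log2 intensity difference from control (x axis) for each of the 90 respiratory chain genes past the level filter (y axis), with complex I at left and the other complexes and cytochrome c at right, at 0.5 µg/ml (open orange) and 0.75 µg/ml (filled blue), 1 array per condition and both doses set against the same control array. Most points lie near 0, and the blue points run from -0.38 (Ndufs5) to 0.52 (Cox4i2, dim on all arrays). Cox4i2 passed the level filter only through its 0.5 µg/ml value.

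**Figure D4:**
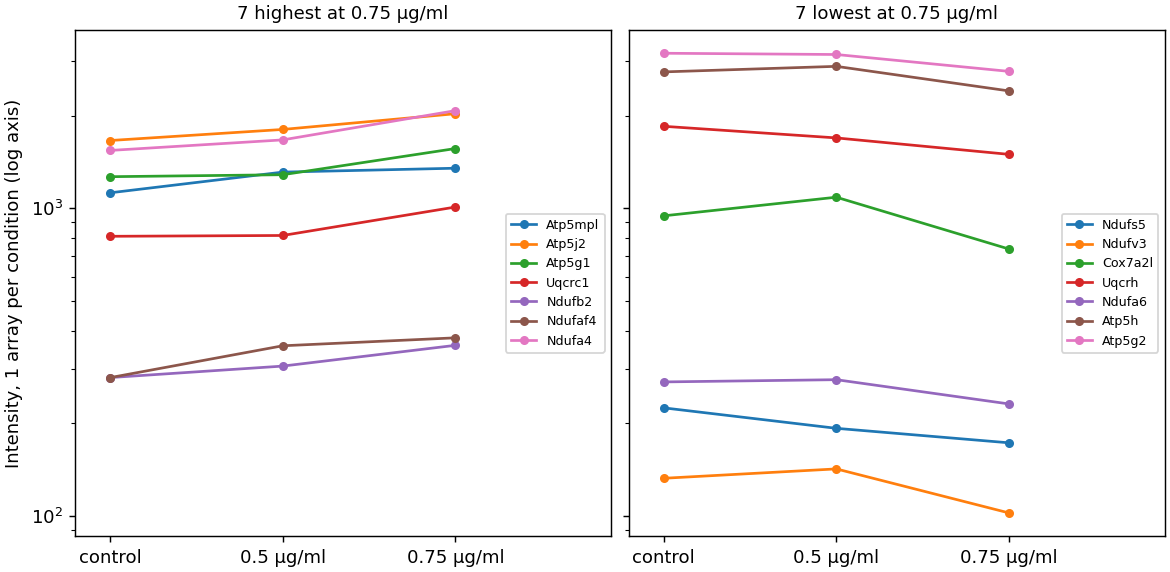
Intensity on each array (y axis, log scale) by condition (x axis) for the 7 genes with the highest (left) and the 7 with the lowest (right) difference at 0.75 µg/ml, taken from the 86 members above the negative-control level, with points joined by lines to follow a gene and no error bars because each condition has 1 array. Ndufa4 runs from 1540.3 to 2075 and Cox7a2l from 944 to 737, with its highest value at 0.5 µg/ml.

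Between the doses, the median over the 90 genes was 0.04 at 0.75 relative to 0.5 µg/ml, beside -0.01 for all genes past the filter. Members above the lower-dose array numbered 55 of 90 (61.1%), against 46.2% of all genes and 50.5% of the bright genes. By a step 4 members were higher and 4 lower (4.44% each), against 7.59% and 11.3% of all genes. At 2-fold 0 members differed, against 0.402% higher and 1.19% lower. The higher members were Cox6b2 (0.60), Cox6a2 (0.41, dim), Ndufaf8 (0.41) and Cox4i1 (0.37), named after their values were seen. The lower were Cox7a2l (-0.56), Cox4i2 (-0.56, dim), Ndufaf6 (-0.48) and Ndufv3 (-0.48). This comparison shares its 0.5 µg/ml array with that of the lower dose against control, where Cox6b2 was at -0.61 and Cox7a2l at 0.20.

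Related groups of mitochondrial genes, listed apart from the symbol rule, also had medians near 0. Of 42 measured assembly factors that the symbol rule does not take, 41 passed the filter, with a median of 0.04 at 0.75 µg/ml, 5 higher by a step and 2 lower, against the 10.8% and 13.1% of all genes. The higher ones included Uqcc2, which assembles complex III, at 289.7, 308 and 417 (0.53), and the lower ones Pet100, a complex IV factor, at 141, 126 and 111 (-0.35). The other higher ones were dimmer: Sdhaf1, Coa7 and Atpaf2 were under the negative-control level on all arrays, and Tmem70 was under it in the control. The other lower one, Cox14, was above that level in the control only. Of 13 tricarboxylic acid cycle genes outside complex II, with a median of 0.00, 0 were higher and 1 was lower by that measure, the NADP-dependent isocitrate dehydrogenase gene Idh2, at 408, 408 and 307 (-0.41). The citrate synthase gene Cs, often used as a measure of mitochondrial content, was at 1934, 2023 and 1932.

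Ubiquinone, the lipid that carries electrons from complexes I and II to complex III, has a tail made from mevalonate-pathway products. The 12 measured genes of its synthesis differed from control by a median of -0.03 at 0.75 µg/ml, with 3 above and 9 below it, 1 higher by a step and 3 lower, where 50.2% of all genes were above, 10.8% higher and 13.1% lower by a step. At 0.5 µg/ml they ran the other way, with a median of 0.05, 9 above and 3 below, 1 higher by a step and 0 lower, against 52.9%, 5.91% and 5.18% of all genes. The hydroxylase gene Coq7 was at 114, 115 and 155 (0.45), and Coq8b, a kinase-like factor, at 198, 182 and 154 (-0.36). The prenyltransferase gene Coq2 was at 373, 419 and 366. The other lower genes, Coq8a at 81.4, 98.9 and 61.4 and Coq10b at 58.0, 51.0 and 43.1, were under the negative-control level on all arrays.

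Regulators of respiratory gene transcription had 13 measured genes, 12 past the filter, with a median of 0.06 at 0.75 µg/ml, 1 higher by a step and 0 lower, against 10.8% and 13.1% of all genes. Nrf1 was at 546, 521 and 629 and the ETS factor gene Gabpa at 721, 751 and 783, with differences of 0.20 and 0.12 at 0.75 µg/ml, while its partner Gabpb1 was at 602, 491 and 491. Tfam, which packages and transcribes mitochondrial DNA, was at 102, 114 and 99.7, its control and 0.75 µg/ml values close to the negative-control level. The coactivator gene Ppargc1a was dim on all arrays, at 9.37, 13.8 and 12.6, and its relative Ppargc1b was at 248, 297 and 255. The gene past a step was the coactivator gene Pprc1, at 90.4, 85.0 and 115, under the negative-control level in the control. The 13 subunits encoded in mitochondrial DNA were not analysed here.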

How the data were processed

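Per the labels' protocols, Trizol was used for extraction and biotin for whole-transcript sense-target labelling. The deposited values are intensities, linear as judged from their range. Which software, background correction and normalization the authors applied is not given in the sources used. Its 28846 probe sets include 5222 negative and 1324 positive controls, told from their identifiers. Gene symbols came from the platform annotation, and all 95 members matched a RefSeq gene of GRCm38.p6 with the same symbol and had 1 probe set each. For other genes with several, the brightest was used. RefSeq names 18 pseudogenes for 11 of the 95 members, not all mentioned above, and whether a probe set reads them was not tested. Log2 was taken above a floor of 1 with no further normalization. The level filter also let through 19.8% of negative controls. Motifs were searched on both strands. Complex and role were assigned by hand from general knowledge. Named genes were those at least 2-fold different, the 8 highest and lowest at 0.75 µg/ml, the 3 highest and lowest at 0.5 µg/ml, catalytic subunits and isoform pairs, and further members and listed genes were named after their values were seen, to account for the rest of each complex. The members and gene lists were chosen with earlier results of these data known, and the comparison with genes of mean log2 intensity of 9 or more was added after seeing the data. The steps were tested on simulated data. Python 3.11.15, numpy 2.4.6, pandas 2.3.3 and matplotlib 3.10.9 were used.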

Additional observations from a re-analysis of the deposited data

How the results depend on the processing

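Medians and counts were recomputed with arrays centred, with quantile normalization, with values under 102 raised to that level, without the level filter, with probe sets averaged, for members of mean log2 intensity of 9 or more (an alternative chosen after seeing the data), for structural subunits only and, for counts, at 1.5-fold. Of 123 values, 114 stayed within the main median's order-statistic interval over members (for counts, within 1.5 times) and 9 did not. That interval is taken over genes, not arrays. For complex II it was the whole range of its 4 genes, and for complex III a large part of the range. Staying within it therefore says little, and the medians of complexes I and III changed sign under some settings. The 9 that moved were all counts. For structural subunits only, 1 member was higher at 0.5 µg/ml and 2 were lower between the doses. With values under 102 raised, 1 was lower at 0.5 µg/ml. At 1.5-fold, 1 was higher and 1 lower at 0.5 µg/ml, 0 were higher and 0 lower at 0.75 µg/ml, and 1 was higher and 0 lower between the doses. These follow from the settings' construction: fewer genes, a larger fold or, where values were raised, the dim gene Cox6a2 set to 102 on all arrays. Member medians ranged from 0.01 to 0.03 at 0.5 µg/ml and from 0.02 to 0.03 at 0.75 µg/ml, and averaging probe sets changed no value because each member has 1. No paired analysis was possible because each group has 1 array, and for the same reason no array could be left out.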
